A study of Gallus gallus with 12 samples.

Results

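Wild-type DT40 cells were examined for the genes they express, the genes they keep silent and the spread between separately grown populations. The 3 samples with the genotype label WT were used, out of 12 samples in all, and no disrupted line enters any value given here. DT40 is an established B cell line from a bursal lymphoma that avian leukosis virus induced in a chicken, and it is widely used for gene disruption. Each sample was 1 independent population of this single line, grown without treatment in medium with bovine and chicken serum, from which polyadenylated RNA was sequenced. A line from 1 tumour limits what the values can say about bursal B cells in the bird, and neither age nor sex of the animal enters the labels.

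B cells are built around the B cell receptor, a surface immunoglobulin coupled to the signalling subunits CD79A and CD79B, and their identity is held by transcription factors such as PAX5 and EBF1. In chickens, B cells form their antibody repertoire in the bursa of Fabricius, where immunoglobulin genes are diversified by gene conversion from upstream pseudogenes. DT40 keeps diversifying its immunoglobulin genes in culture, and the *MYC* locus is a common site of virus integration in lymphomas of this kind.

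Expression was given in TPM units, in which a gene's reads are divided by its length and scaled to the same total in every library, so that levels of different genes can be set side by side. The deposited tables hold 24356 genes, of which 12567 carry a gene symbol. A gene was called expressed at 1 TPM or more in all 3 libraries, the level limit used in the study's own methods, and silent at under 0.1 TPM in all 3. The summed expected counts were 13806439, 50160512 and 17188632 in replicates 1, 2 and 3. At these depths 3 counts on a gene of about 2 kb correspond to 0.170, 0.0446 and 0.133 TPM, below which a level was taken as not detectable in that library. These floors cover counting error only. A level under 0.1 TPM was therefore resolved by replicate 2 alone on such a gene.

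Replicate 1 stood apart from replicates 2 and 3. Across the 10262 expressed genes, Spearman's rho was 0.969 between replicates 1 and 2, 0.973 between replicates 1 and 3 and 0.992 between replicates 2 and 3, as a description over genes, which are not independent replicates. Of the 7437 genes whose mean was 10 TPM or more, 323 differed at least 2-fold between replicates 1 and 2, 229 between replicates 1 and 3 and 44 between replicates 2 and 3. Each library was counted as 1 population because the study's methods describe RNA from 3 independent populations. Every pair of libraries differed by more than counting noise, which by itself does not show that the populations were separate. The part of sequencing depth, which was lowest in replicate 1 and highest in replicate 2, was not tested. The labels give no date or batch for the libraries, and values that rest on replicate 1 are given for each library below.

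The 4 genes taken as marks of the line were checked first. *PAX5* (ENSGALG00000016431), the transcription factor that commits cells to the B lineage, was at 162, 79.5 and 101 TPM in replicates 1 to 3, with a mean of 114 ± 42.8 TPM (SD, n = 3). *CD79B* (ENSGALG00000000251), a signalling subunit of the B cell receptor, was at 461, 205 and 178 TPM. *BLNK* (ENSGALG00000006973), the adaptor that links the receptor's kinases to calcium signalling, was at 235, 137 and 146 TPM. All 3 B cell genes were highest in replicate 1 and far over the limit of 1 TPM in every library. *MYC* (ENSGALG00000033631), the growth-promoting transcription factor, was at 1562, 1886 and 1657 TPM, a mean of 1702 ± 167 TPM (SD, n = 3), and its lowest level was in replicate 1. It ranked 100 among all genes by mean level. All 4 markers were thus present in every library. In GRCg7b, a later chicken assembly, the *CD79B* locus overlaps another gene model. The expected counts of *PAX5* were fractional, as RSEM, the authors' quantifier, writes them when it divides a read among several genes.

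A minority of annotated genes made nearly all of the RNA. Of all 24356 genes, 10262 (42.1%) were expressed, and of the 12567 genes with a symbol 8014 (63.8%) were expressed and 2564 (20.4%) were silent. Among all genes 9480 were under 0.1 TPM in every library and 7553 had no counts at all. The 1653 genes with a mean of 100 TPM or more held 77.1% of all TPM, and the 5784 genes between 10 and 100 TPM held 21.3%. The median coefficient of variation over the 3 populations was 9.47% at 100 TPM or more, 11.99% between 10 and 100 TPM, 23.8% between 1 and 10 TPM and 59.2% between 0.1 and 1 TPM. Low levels were thus the least precise.

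The most abundant named transcripts encoded the translation machinery, metabolic enzymes and the cytoskeleton. *EEF1A1*, which brings aminoacyl-tRNAs to the ribosome, led the genes with a symbol at 16499, 12109 and 11838 TPM. Of the 20 most abundant genes with a symbol, 12 were ribosomal protein genes by symbol, among them *RPLP1* at a mean of 7195 TPM, and 2 were the mitochondrially encoded respiratory chain genes *COX1* and *COX3*, at means of 4764 and 3977 TPM. The remaining 6 were *EEF1A1*, *PPIA*, *FTH1*, *ACTG1*, *GAPDH* and *ENO1*. *PPIA*, a prolyl isomerase that helps proteins fold, was at 6143, 5158 and 5504 TPM. *FTH1*, the heavy chain of the iron store ferritin, was at 4532, 6477 and 5129 TPM and was the one of these 6 that was lowest in replicate 1. *ACTG1*, a cytoplasmic actin, was at 5271, 3655 and 3464 TPM. For 6 of the 20 genes the counts were not whole, so that reads shared with copies of the gene may enter their level.

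The 72 ribosomal protein genes together held 17.5, 14.4 and 14.4% of all TPM in replicates 1 to 3. The 13 mitochondrially encoded genes held 2.93, 2.18 and 2.89%. The 100 most abundant genes held 34.4, 35.8 and 33.8%, a mean of 34.7% ± 1.02 (SD, n = 3), and 49 of them were ribosomal and 7 mitochondrial. Genes without a symbol held 16.6, 22.2 and 20.1% of all TPM, so that part of the measured RNA came from loci that can be described only by identifier. In the top 100 there were 14 such genes, 11 of them shorter than 350 bases, and 5 stood in the top 10. The share of the top 100 was 21.8% when expected counts were used in place of TPM.

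**Figure D1:**
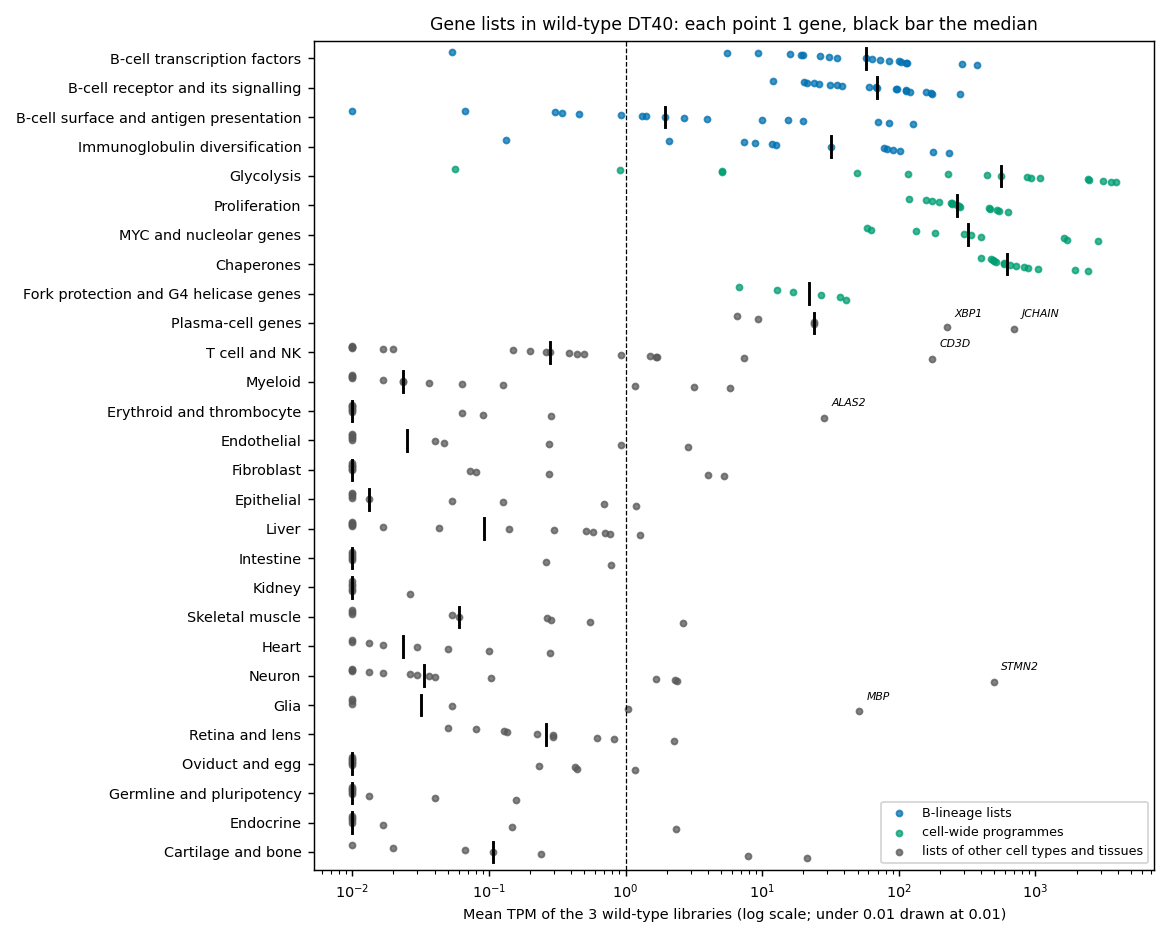
Mean TPM of the 3 wild-type libraries (x axis, log scale, values under 0.01 drawn at 0.01) for the members of 28 gene lists (y axis), with 1 point a gene and a black bar at each list's median; the dashed line marks 1 TPM. Most members of the B-lineage lists and of the cell-wide programmes lie to the right of the line, and most members of the lists of other cell types lie to the left of it, apart from labelled genes such as *STMN2* and *CD3D*.

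Of the 4 B-lineage lists, 3 were expressed nearly throughout and that of surface and antigen presentation in part. Of 69 genes in 4 lists (B cell transcription factors, receptor and signalling, surface and antigen presentation, immunoglobulin diversification), 58 (84.1%) were expressed, against 63.8% of all genes with a symbol, and the median of their mean levels was 32.0 TPM. Among the 184 entries of 19 lists for other cell types and tissues, 26 (14.1%) were expressed, 95 (51.6%) were silent and 53 had no counts in any library, and the median mean level was 0.04 TPM. In 5 lists of cell-wide programmes 60 of 62 genes (96.8%) were expressed with a median of 423 TPM. The lists were chosen with earlier results of these data known, so the counts describe the line and are no test of it. The B-lineage lists also hold genes that most cell types use, such as *GRB2* and *POU2F1*. The plot of list members by level shows the separation.

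The list of B cell transcription factors was led in every library by *MYBL2* and *POU2AF1*. Of 19 measured, 18 were expressed, with a median of 57.3 TPM. *PAX5* came next by its mean, but *IRF4* was higher than *PAX5* in replicates 2 and 3, and *IKZF3*, *TCF3* and *IRF8* in replicate 2. *MYBL2*, a cell-cycle transcription factor of the MYB family, was at 592, 247 and 291 TPM. *POU2AF1*, the B cell coactivator of octamer-binding factors, was at 370, 257 and 249.7 TPM. *EBF1*, which acts with PAX5 early in the lineage, was at 28.5, 14.8 and 14.6 TPM. These 3 genes were highest in replicate 1, by a margin that was widest for *MYBL2* and *EBF1*. The Ikaros family members *IKZF3*, at 119, 119 and 100.2 TPM, and *IKZF1*, at 63.5, 49.7 and 58.7 TPM, varied less between the populations.

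Factors of the germinal-centre programme and those of later stages were both found in the RNA of each population. Whether the same cells held both cannot be told from RNA of whole populations. *BCL6*, the repressor that holds germinal-centre B cells in that state in mammals, was at 95.5, 68.1 and 90.4 TPM. *IRF8*, known from the same stage, was at 126, 84.3 and 92.5 TPM. *IRF4*, which in mammals drives the plasma-cell fate at high dose, was at 60.2, 122 and 131 TPM. The order of the 2 interferon regulatory factors thus turned over between libraries, with *IRF8* the higher in replicate 1 and *IRF4* the higher in replicates 2 and 3. *BACH2*, a repressor of plasma-cell differentiation, was low at 8.55, 3.2 and 4.74 TPM. *SPI1*, the ETS factor shared by myeloid and B cells, was at 48.6, 23.7 and 32.7 TPM and *ETS1* at 94.6, 47.4 and 48.1 TPM. *TCF3*, the E protein of early B cells, was lowest in replicate 1, at 41.9, 97.3 and 79.8 TPM. *LEF1*, a factor of WNT signalling and of B cell precursors, was the one listed factor that was not expressed, with 0, 7 and 1 counts.

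All 20 measured genes of the receptor and its signalling were expressed, with a median of 68.8 TPM. The receptor-proximal kinases were *LYN* at 203, 64.3 and 69.2 TPM, *SYK* at 29.3, 15.6 and 16.1 TPM and *BTK* at 196, 152 and 179 TPM. *LYN* in replicate 1 was well over the other libraries, whereas the range of *BTK* was narrow. *PLCG2*, the phospholipase that these kinases activate, was at 75.8, 49.3 and 56.9 TPM. *PIK3AP1*, the adaptor BCAP through which phosphoinositide 3-kinase is engaged, was at 179, 86.9 and 95.4 TPM. *PRKCB*, a protein kinase C that leads from the receptor to NF-κB, was at 154, 88.6 and 97.7 TPM, again highest in replicate 1. *GRB2*, an adaptor used by most cells, had 151, 153 and 167 TPM and no such gap. *PTPRC*, the leukocyte phosphatase CD45, was at 123, 77.8 and 85.6 TPM. *CD79A* and *CD22* were not analysed here, since no entry of the tables was matched to these symbols.

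**Figure D2:**
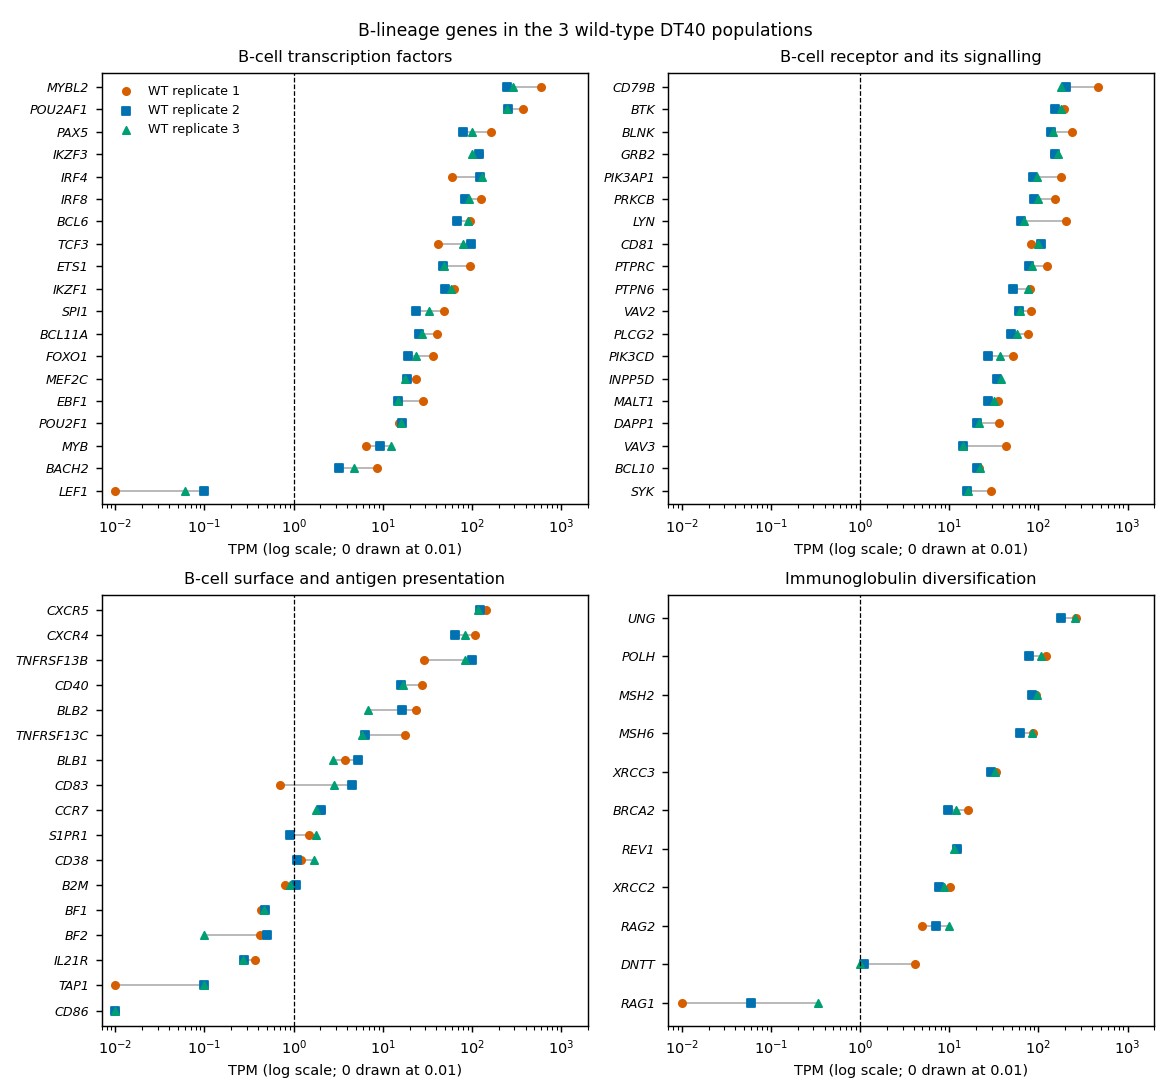
TPM (x axis, log scale, 0 drawn at 0.01) of the members shown of the 4 B-lineage lists in wild-type replicates 1, 2 and 3 (orange circles, blue squares and green triangles), with grey lines over their range and a dashed line at 1 TPM. Replicate 1 is the highest library for most receptor genes, among them *CD79B* at 461 TPM, and the surface and antigen presentation panel holds most of the genes under 1 TPM.

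Surface and antigen presentation genes were mixed. Of 17 genes in this list 9 were expressed, a smaller share than the 63.8% of all genes with a symbol, and the median was 1.94 TPM. *CXCR5*, the chemokine receptor that guides B cells to follicles, was at 144, 122 and 118 TPM, and *CXCR4*, the receptor for CXCL12, was at 109, 65.0 and 82.6 TPM. The receptors for the survival factors of B cells differed in pattern: *TNFRSF13B*, which encodes TACI, was at 29.2, 99.1 and 83.5 TPM, and *TNFRSF13C*, which encodes the BAFF receptor, was at 17.8, 6.37 and 5.84 TPM. TACI was thus lowest and the BAFF receptor highest in replicate 1. *CD40*, the receptor for T cell help, was at 27.3, 16.02 and 16.8 TPM. Other surface genes did not reach 1 TPM in every library, among them *IL21R*, a cytokine receptor, at 0.37, 0.28 and 0.27 TPM and *CD83*, an activation marker, at 0.71, 4.53 and 2.84 TPM.

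In the chicken major histocompatibility complex, class I genes were under the limit of expression and class II genes over it. The class I genes *BF1*, at 0.43, 0.48 and 0.46 TPM, and *BF2*, at 0.42, 0.5 and 0.1 TPM, did not reach 1 TPM in any library. *B2M*, the light chain of class I molecules, was at 0.79, 1.06 and 0.92 TPM, and *TAP1*, the peptide transporter that loads them, had 0, 6 and 2 counts. The class II genes were higher, with *BLB2* at 23.3, 16.4 and 6.91 TPM and *BLB1* at 3.78, 5.32 and 2.76 TPM. *CD86*, a co-stimulatory ligand for T cells, was the one silent gene of the B-lineage lists. It had 0 counts in all 3 libraries, which allows up to 0.180, 0.0472 and 0.141 TPM. The *BF* and *BLB* genes are polymorphic families with close copies, and the counts of *BF1*, *BF2*, *BLB1*, *BLB2* and *B2M* were not whole. How far reads of this line map to the reference alleles was not tested.

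Most genes of immunoglobulin diversification were expressed. Of 13 measured genes 11 were expressed, the median was 32.0 TPM, and no member with a mean of at least 10 TPM differed 2-fold between populations. Among all genes of this level 5.12% did so, and for so short a list the count is near that share. *UNG*, the glycosylase that removes uracil from DNA, was at 266, 179 and 254 TPM. *POLH*, a translesion polymerase, was at 121, 79.0 and 106 TPM. Both were lowest in replicate 2. The homologous recombination gene *BRCA2*, at 16.4, 9.58 and 11.8 TPM, was lowest there as well.

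The V(D)J recombination genes were split. *RAG2* was at 4.9, 7.02 and 10.0 TPM, and *RAG1*, its partner in the recombinase, had 0, 6 and 12 counts, or 0, 0.06 and 0.34 TPM. *RAG2* was thus expressed in every library and *RAG1* in none. As background, bursal B cells of the chicken are known to carry *RAG2* without *RAG1* transcripts after rearrangement is complete. *DNTT*, the polymerase that adds untemplated bases at V(D)J joints, was at 4.12, 1.1 and 0.99 TPM.

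Genes of the plasma-cell stage were expressed too, and their levels were lowest in replicate 1. All 6 measured members of that list were at 1 TPM or more in every library, and it was the only one of the 19 lists for other cell types of which this was so. *JCHAIN*, the joining chain of polymeric immunoglobulins, was at 415, 956 and 732 TPM. *XBP1*, the transcription factor of the secretory programme, was at 181, 260.2 and 234 TPM. *PRDM1*, the repressor that establishes the plasma-cell state, was at 1.27, 9.4 and 8.94 TPM, from 29, 832 and 265 counts. *CREB3L2*, a membrane-bound factor that drives secretory genes, was at 6.41, 35.3 and 30.4 TPM. *FKBP11*, a folding enzyme of secretory cells, was at 11.4, 29.6 and 30.3 TPM. Replicate 1 was the lowest library for all 6 genes, *SDC1* at 5.42, 13.1 and 9.37 TPM included. How many of all genes were lowest in replicate 1 was not counted. Of the 4 members with a mean of at least 10 TPM, replicate 1 lay at least 1.5-fold below both others in 3. Among all genes of this level it did so in 4.26%. *XBP1* was the member that did not lie apart by this rule, which was set after the values had been seen. For *PRDM1* the ratio of highest to lowest library was 7.4, the widest of the list. In RNA from whole populations, a low level in every cell and a high level in few cells cannot be told apart, here and for the lists that follow.

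Markers of other cell types and tissues were mostly not expressed, and 95 of the 184 entries (51.6%) were silent. The silent share differed by list, with 1 of 10 retina and lens and 6 of 19 T cell and NK entries silent. All 6 measured kidney genes were silent, among them *SLC12A1*, the transporter of the thick ascending limb, with a single level above 0 of 0.03 TPM, in replicate 3. None of the 9 epithelial, 7 intestinal, 8 cardiac, 10 oviduct and 8 germline genes was expressed, that is, at 1 TPM or more in all 3 libraries. Some lay near this limit, with a highest mean of 1.197 TPM in the epithelial and 1.18 TPM in the oviduct list. The keratins *KRT18*, *KRT19* and *KRT5*, the intestinal fatty acid binding protein gene *FABP2*, the cardiac factors *NKX2-5* and *TBX5* and the egg yolk precursor gene *VTG1* had no counts in any library. The endothelial receptor *KDR* and the cadherin *CDH5* had none either, and for *KDR* 0 counts allow up to 0.0631, 0.0165 and 0.0493 TPM. The globins *HBA1*, *HBE1* and *HBZ*, the chief transcripts of red cells, had no counts, though on the short *HBA1* this still allows 0.605, 0.158 and 0.473 TPM. Over all 184 entries, 3 counts corresponded to a median of 0.177, 0.0455 and 0.141 TPM in replicates 1 to 3.

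The genes that went against their list were few. Of the 26 expressed entries 9 reached a mean of 10 TPM, 4 of them plasma-cell genes. *STMN2* (ENSGALG00000039690), a microtubule regulator known from growing neurons, was by far the highest gene of the neuron list at 725, 362 and 395 TPM, whereas *SNAP25*, *GRIN1*, *SLC17A6* and *NEFM* of the same list were silent. *CD3D* (ENSGALG00000007418), a subunit of the T cell receptor complex, was at 215, 155 and 155 TPM. Of the other subunits in the list, *CD247* was expressed at the low level of 1.64, 1.91 and 1.51 TPM and *CD3E* was not, at 0.06, 0.45 and 0.33 TPM. The co-receptor *CD4*, at 0, 0 and 0.05 TPM, and the kinase *LCK*, at 0.11, 0.35 and 0.32 TPM, were not expressed either. The co-receptor gene *CD8A* had 3 entries, each counted singly, and none reached 1 TPM in all 3 libraries. They were at 1.94, 0.08 and 0.78 TPM, at 2.85, 0.86 and 1.33 TPM and at 0.56, 0.96 and 3.04 TPM. Their counts were not whole, so reads may be divided among them, and *CD8A* as a gene cannot be called unexpressed. The T cell factors *TCF7* and *BCL11B* had no counts, which for *TCF7* allows up to 0.252, 0.0659 and 0.197 TPM. *MBP* (ENSGALG00000013640), whose product in myelinating glia is the myelin basic protein, was at 78.1, 39.9 and 36.0 TPM, whereas the glial genes *AQP4* and *OLIG2* had no counts. *GFAP* of the same list was neither silent nor expressed, at 0.67, 0.83 and 1.64 TPM. Which transcript forms of the genes in this paragraph were present was not examined here. *STMN2*, *CD3D* and *MBP* were highest in replicate 1.

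*ALAS2*, the red-cell form of the first enzyme of haem synthesis, was even across the populations at 29.0, 26.8 and 29.7 TPM. *BGLAP*, listed for the bone protein osteocalcin, was at 20.3, 21.9 and 21.2 TPM on a short gene with 69, 284 and 92 counts. *SOX9*, a factor of cartilage and many epithelia, was at 7.69, 7.3 and 8.62 TPM, whereas the cartilage matrix genes *COL2A1* and *ACAN* were silent. *CD5*, a T cell marker that is also found on some B cells, was at 11.9, 3.94 and 6.26 TPM. Of the 2 expressed myeloid genes, *CEBPB* was at 2.5, 8.69 and 6.25 TPM and *CTSK* at 3.86, 2.28 and 3.37 TPM, whereas *CSF1R*, *MRC1*, *MARCO* and the complement genes *C1QA*, *C1QB* and *C1QC* were silent. *CYBB*, at 0.71, 1.48 and 1.33 TPM, and *CD14*, at 0.08, 0.11 and 0.19 TPM, were neither silent nor expressed.

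Of the lists with an exception, 4 of 14 neuron, 3 of 19 T cell and NK, 2 of 13 myeloid, 2 of 11 fibroblast and 2 of 7 cartilage and bone genes were expressed. In the liver, erythroid, endothelial, muscle, glia, retina and lens, and endocrine lists it was 1 gene each. The other expressed members of these lists were low. The collagens *COL1A1*, at 2.77, 5.28 and 4.06 TPM, and *COL1A2*, at 7.3, 3.52 and 4.91 TPM, stood beside fibroblast genes without counts such as *DCN* and *PDGFRA*. Means between 1 and 3 TPM were found for *F2*, *SYT1*, *RBFOX3*, *NEUROD1*, *ACTA1*, *CRYBB1*, *GH* and *PECAM1*. In GRCg7b the loci of *RBFOX3*, *CRYBB1*, *GH* and *PECAM1* each overlap another gene model, *GH* the same one as *CD79B*, and the counts of *ACTA1* and *NEUROD1* were not whole. The handling of strand is not given in the sources used here, so these low levels are uncertain.

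**Figure D3:**
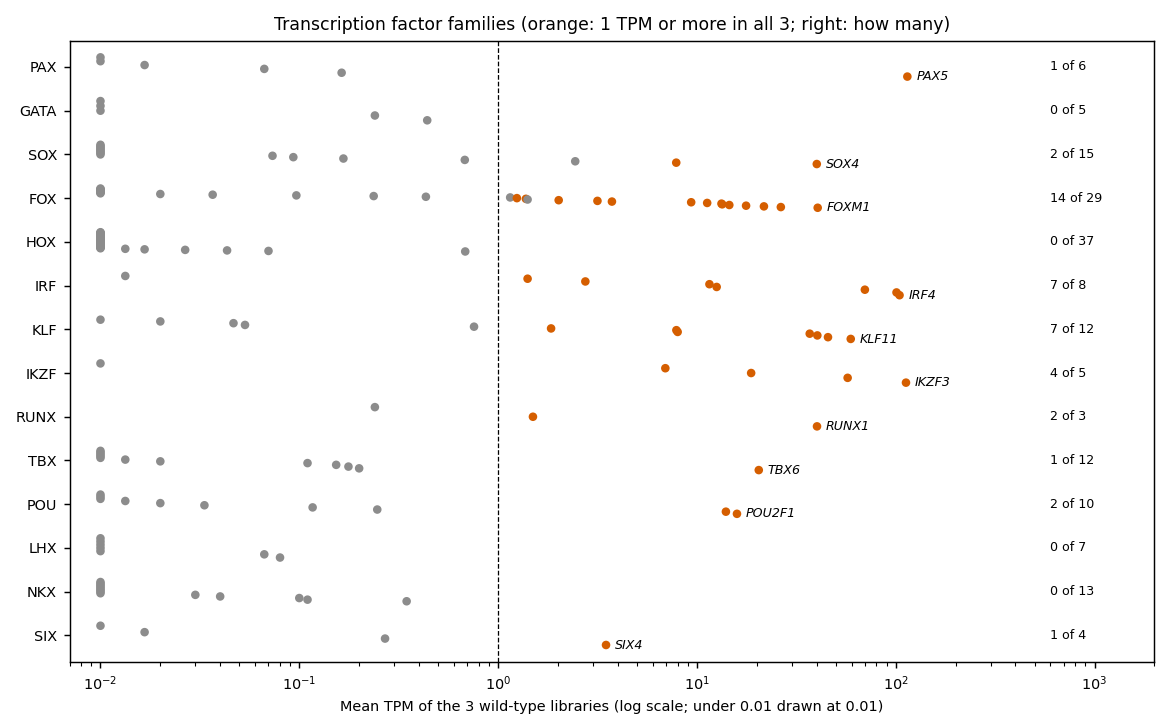
Mean TPM of the 3 wild-type libraries (x axis, log scale, values under 0.01 drawn at 0.01) for the members of 14 transcription factor families (y axis), 1 point a gene, in orange where the gene reached 1 TPM in all 3 libraries and in grey otherwise. The right column counts the orange genes, the name beside a family's highest point is that gene, and no GATA, HOX, LHX or NKX member is orange.

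In several developmental transcription factor families few or no members were expressed. Over 14 families 41 of 166 measured genes were expressed, 91 were silent, 69 of these with no counts, and the others lay between these limits, against 63.8% expressed and 20.4% silent among all genes with a symbol. None of the 37 HOX genes, which pattern the body axis, was expressed. Of these, 34 were silent, 31 had no counts, and the highest single level was 0.88 TPM, for *HOXA4*. None of the 5 GATA, 7 LHX and 13 NKX genes was expressed. *PAX5* was the one expressed member of the 6 PAX genes, and *SOX4* and *SOX9* were the 2 of 15 SOX genes. *SOX4*, which is needed for B cell precursors in mice, was at 28.9, 48.5 and 43.0 TPM. The plot of transcription factor families shows *PAX5* far from the other PAX genes.

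Other families were expressed more widely. *RUNX1*, a factor of blood stem cells and lymphocytes, was at 45.3, 41.4 and 33.8 TPM and *RUNX3* at 1.64, 1.2 and 1.65 TPM, while *RUNX2*, the factor of bone, stayed under 1 TPM. Expressed were 4 of 5 IKZF genes, 7 of 8 IRF genes, 7 of 12 KLF genes and 14 of 29 FOX genes, the KLF and FOX shares being below the 63.8% of all genes with a symbol. *IRF5* followed *IRF4* and *IRF8* at 90.3, 53.9 and 65.6 TPM. *FOXM1*, the cell-cycle member of the FOX family, was its highest at 60.3, 27.9 and 33.3 TPM, ahead of *FOXO1* at 36.6, 19.1 and 23.6 TPM. *FOXP3*, known as the factor of regulatory T cells, was at 17.7, 11.4 and 11.1 TPM from counts that were not whole. Lower means than that of *FOXO1* were also found for *FOXK2*, *FOXJ2*, *FOXK1*, *FOXN3*, *FOXN2*, *FOXL2*, *FOXP2*, *FOXO3*, *FOXP4* and *FOXO6*, the first 5 of which had means over 10 TPM. In replicate 2, however, *FOXK2* was the higher, at 20.8 TPM against 19.1 TPM for *FOXO1*.

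Some isolated members stood out in the remaining families. *POU2F1*, the octamer-binding factor of most cell types, was at 15.14, 16.55 and 16 TPM, and *POU3F4*, known from the inner ear and brain, was at 10.7, 16.4 and 14.9 TPM from counts that were not all whole. *TBX6*, a factor of the paraxial mesoderm, was at 21.99, 19.78 and 19.65 TPM, the one expressed member of 12 TBX genes, and its locus overlaps *CRKL* in GRCg7b. *SIX4* was at 3.05, 3.48 and 3.94 TPM. In the KLF family *KLF11* was at 49.01, 70.78 and 58.37 TPM and *KLF10* at 29.1, 56.4 and 51.4 TPM, both lowest in replicate 1. *KLF8* was at 38.6, 38.5 and 33.6 TPM, and *KLF13*, *KLF6* and *KLF9* were lower.

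The listed genes of growth and division were high. All 15 proliferation genes were expressed with means between 118 and 632 TPM, and none differed 2-fold. Among all genes with a mean of 10 TPM or more 5.12% did so, and for so short a list the count is near that share. Cell-cycle factors outside this list went the other way, as *MYBL2* differed 2.39-fold and *FOXM1* 2.16-fold, both highest in replicate 1. *PCNA*, the sliding clamp of DNA polymerases, was at 673, 571 and 651 TPM, and *CDK1*, the kinase that drives mitosis, was at 535, 515 and 529.9 TPM. All 10 genes of the MYC and nucleolar list were expressed as well. *NPM1*, a nucleolar chaperone, was at 3268, 2717 and 2649 TPM and *NCL*, the nucleolar protein nucleolin, at 1552, 1649 and 1649 TPM. *ODC1*, the first enzyme of polyamine synthesis and a known MYC target, was at 126, 222 and 204 TPM and was the one member of this list in which replicate 1 lay at least 1.5-fold apart.

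Glycolysis was expressed through particular isoforms. Of 17 measured genes 15 were expressed, with a median of 562 TPM. *GAPDH* was at 4218, 3746 and 3741 TPM and *ENO1* at 4494, 2899 and 3265 TPM. *ALDOC*, the aldolase known from brain, was at 2199, 2535 and 2501 TPM. Among the phosphofructokinases, *PFKP* was at 179, 262 and 249 TPM, *PFKL* at 40.8, 52.2 and 56.3 TPM and *PFKM*, the muscle form, at 1.12, 1.16 and 0.44 TPM. Both lactate dehydrogenases were present, *LDHB* at 1047, 1107 and 1102 TPM and *LDHA* at 804, 913 and 886 TPM.

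The fork protection and helicase genes that the study disrupted in other lines were all expressed. The median level of expressed genes was 24.8, 23.1 and 24.1 TPM in replicates 1 to 3. In every library *TIMELESS* lay above this median, and *DDX11* and *BRIP1* lay below it. *TIMELESS* was at 40.8, 34.2 and 48.4 TPM from counts that were not whole. *DDX11* was at 10.5, 12.7 and 15.5 TPM, and *BRIP1*, which encodes FANCJ, at 8.52, 5.16 and 6.59 TPM. *TIPIN*, the partner of Timeless, was at 35.8, 33.9 and 41.1 TPM. The helicases were thus lower than the fork protection pair in every library. The ranges of *DDX11* and *BRIP1* did not overlap, and those of *TIMELESS* and *TIPIN* did.

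The 3 populations differed at a limited set of genes. Of the 7437 genes whose mean was 10 TPM or more, 381 (5.12%) differed at least 2-fold between the highest and lowest library and 47 at least 4-fold. Replicate 1 was the highest or lowest library in 357 of the 381, the highest in 206 and the lowest in 151. As 2 of the 3 libraries are extremes at every gene, part of this count would arise for any library. Without replicate 1 the count was 41, without replicate 2 it was 240 and without replicate 3 it was 337. A biological coefficient of variation, the spread between populations beyond counting noise, was estimated at 17.3% over these genes with edgeR, and at 8.25% without replicate 1. Replicate 1 lay at least 1.5-fold above both others in 359 genes (4.83%) and at least 1.5-fold below both in 317 (4.26%), against 37 and 54 for replicate 2 and 26 and 27 for replicate 3.

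**Figure D4:**
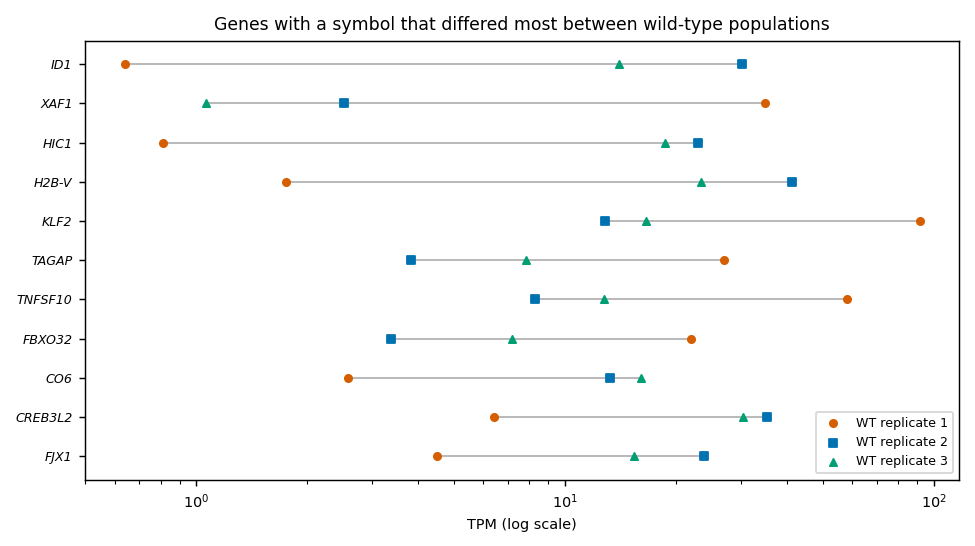
TPM (x axis, log scale) in wild-type replicates 1, 2 and 3 (orange circles, blue squares and green triangles) of 11 of the 12 genes with a symbol and a mean of at least 10 TPM whose highest library exceeded the lowest most, widest at the top. Replicate 1 is at one end of the range for all 11 genes shown, at 0.64 TPM for *ID1* and at 91.6 TPM for *KLF2*.

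The widest differences were found at regulators with a low level in 1 or 2 libraries. *ID1* (ENSGALG00000034661), an inhibitor of E proteins such as that encoded by *TCF3*, was at 0.64, 30.25 and 13.99 TPM, from 6, 1084 and 168 counts. *XAF1* (ENSGALG00000005928), a pro-apoptotic gene that interferon induces in mammals, was at 34.9, 2.51 and 1.06 TPM. *HIC1* (ENSGALG00000042077), a transcriptional repressor, was at 0.81, 23.0 and 18.7 TPM. In GRCg7b the *XAF1* locus overlaps other gene models. For these 3 genes the highest library was 47.3-fold, 32.9-fold and 28.4-fold over the lowest. The fourth, *H2B-V*, belongs to the multicopy histone genes, and reads shared among its copies make its level of 1.75, 41.2 and 23.4 TPM uncertain.

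*KLF2* (ENSGALG00000003939), which keeps lymphocytes quiescent in mice, was at 91.6, 12.8 and 16.6 TPM. *TNFSF10*, the death ligand TRAIL, was at 58.4, 8.28 and 12.8 TPM. *FBXO32*, a ubiquitin ligase subunit known as a FOXO target in muscle, was at 21.9, 3.38 and 7.2 TPM. *TAGAP*, a GTPase regulator of lymphocytes, was at 27.01, 3.82 and 7.84 TPM. All 4 were highest in replicate 1 and lowest in replicate 2. *CO6*, at 2.57, 13.2 and 16.1 TPM, *CREB3L2* and *FJX1*, at 4.5, 23.9 and 15.4 TPM, were lowest in replicate 1.

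Other genes were nearly constant. *NUP153*, a nuclear pore protein, was at 129, 129 and 129 TPM, with a ratio of highest to lowest of 1.002, the smallest among the named genes of this level. *SRSF3*, a splicing factor, was at 454, 456 and 454 TPM. *SLC16A3*, a lactate exporter, *CCDC6* and *GLE1*, an mRNA export factor, completed the 5 narrowest, with ratios of 1.006 to 1.007.

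Replicate 1 lay apart in part of the members of several lists. Among all genes of this level the shares were 4.83% above and 4.26% below. The 1.5-fold rule was set after the values had been seen, and the lists were chosen with earlier results of these data known. The counts are therefore descriptions and test no excess in any list. Among the 20 receptor signalling genes, replicate 1 was at least 1.5-fold above both others in 9 and below in none. Among the 16 B cell transcription factors with a mean of at least 10 TPM it was above in 5 and below in 2, *IRF4* and *TCF3*. The median ratio of replicate 1 to replicate 2 was 1.65 in the receptor list and 1.47 in the transcription factor list. None of the 9 diversification, 15 proliferation, 13 glycolysis and 5 fork genes at this level lay apart.

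A further 4 lists were drawn up after the values had been seen, to name the genes that set replicate 1 apart, so their counts are illustrations only. In the list of chaperones and translocation factors of the endoplasmic reticulum all 29 genes were expressed, and replicate 1 lay below both others in 13 and above in none. *HSPA5*, the chaperone BiP, was at 306, 1005 and 651 TPM, *HSP90B1*, the chaperone GRP94, at 218, 781 and 547 TPM and *MANF*, a factor secreted under stress of this compartment, at 135, 417 and 317 TPM. Their order was the same, with replicate 1 lowest and replicate 2 highest. *RRBP1*, a ribosome receptor of the reticulum, was at 8.79, 35.4 and 35.1 TPM. Members of the protein translocation and signal peptidase complexes were divided. *SSR2*, at 393, 393 and 388 TPM, and *SPCS3*, at 270.2, 294 and 276 TPM, were even, whereas *SEC61A1*, at 149, 247 and 229 TPM, and *SEC11C*, at 32.4, 75.5 and 64.2 TPM, were lowest in replicate 1. The sums over the list were 6266, 10190.0 and 9096 TPM.

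**Figure D5:**
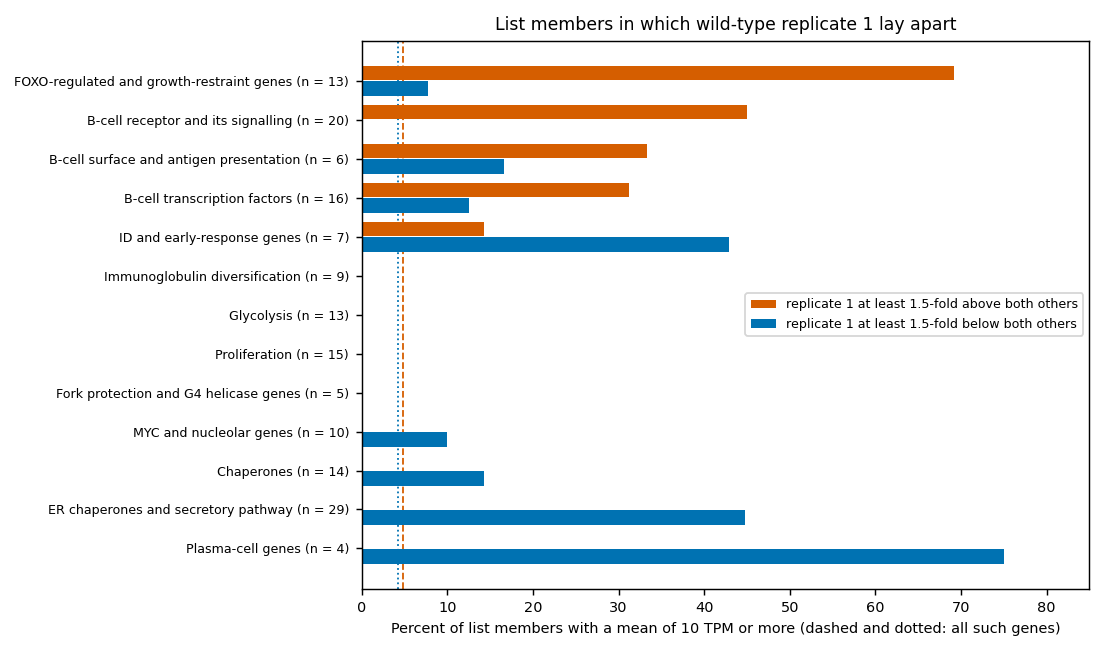
Percent of a list's members with a mean of at least 10 TPM (x axis) in which wild-type replicate 1 lay at least 1.5-fold above both other replicates (orange bars) or at least 1.5-fold below both (blue bars), for each list with 4 or more such members (y axis, n is their number). The dashed orange and dotted blue lines mark the same share over all 7437 genes, 4.83% and 4.26%. The receptor list lies above the orange line while the plasma-cell and endoplasmic reticulum lists have blue bars only. The endoplasmic reticulum, FOXO and ID lists and the 1.5-fold rule were drawn up after the values had been seen. The other lists were chosen with earlier results of these data known, so all bars are illustrations only.

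In a list of FOXO-regulated and growth-restraint genes replicate 1 was above both others in 9 of the 13 members with a mean of at least 10 TPM and below in 1. *TSC22D3*, a leucine zipper protein that glucocorticoids induce, was at 139.5, 27.8 and 59.4 TPM. *CDKN1B*, the cyclin-dependent kinase inhibitor p27, was at 33.3, 9.87 and 13.1 TPM. *TXNIP*, which restrains glucose uptake, was at 85.8, 41.1 and 36.0 TPM. *GADD45A*, a stress-response gene, was the exception at 67.2, 132 and 115 TPM, and *BTG2* was even at 25.7, 26.4 and 25.4 TPM. No member of the proliferation list lay apart in this way, *PCNA* and *CDK1* included, but the cell-cycle factors *MYBL2* and *FOXM1* were highest in replicate 1.

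Replicate 1 was also low in histone genes, with 9 of the 14 histone symbols at this level at least 1.5-fold below both others and none above, as a description of transcripts that mostly lack poly(A) tails and have near-identical copies. Among ID and early-response genes replicate 1 was below in 3 of 7 and above in 1. *ID2*, at 30.2, 35.9 and 27.2 TPM, did not follow *ID1*, and *ID3* was at 31.3, 46.0 and 70.6 TPM. *ARID3A*, a B cell factor that binds immunoglobulin enhancers in mice, was at 33.0, 173 and 143 TPM. *SMARCA1*, a chromatin remodelling ATPase, was at 151, 36.3 and 43.5 TPM. Both were named after their values were seen.

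Antiviral genes, many of them induced by interferon, were expressed in part. Of 16 listed after the values had been seen, 6 were expressed and 6 were silent, against 63.8% and 20.4% of all genes with a symbol. Since the members were chosen with their levels known, these counts are an illustration and show no deficit of antiviral expression. *MX1* and *RSAD2* had no counts, which for *MX1* allows up to 0.137, 0.0359 and 0.107 TPM, and *IFIT5* was at 0, 0.03 and 0.08 TPM. The sensors *TLR3*, at 0.03, 0.05 and 0 TPM, and *IFIH1*, at 0, 0.01 and 0.04 TPM, were silent too. *TLR7*, a receptor for single-stranded RNA, was at 17.5, 3.23 and 4.45 TPM and shared with *XAF1* its highest level in replicate 1, whereas *IFITM3* was lowest there at 5, 16.5 and 18.4 TPM.

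Expressed genes were found on every chromosome with enough matched genes. Symbols were placed on chromosomes through the RefSeq annotation of GRCg7b, which matched 11635 of 12503 unique symbols. On the 28 autosomes with at least 100 matched genes, the share expressed ran from 56.5% on chromosome 26 to 77.5% on chromosome 15. The median level of expressed genes ran from 22.1 TPM on chromosome 1 to 78.8 TPM on chromosome 25. On the Z chromosome 321 of 546 genes (58.8%) were expressed, with medians of 14.03, 13.39 and 14.89 TPM in replicates 1 to 3, against 64.2% and medians of 29.5, 27.4 and 28.6 TPM on the autosomes. The Z medians were about equal in the 3 populations and below those of the autosomes in each. Only 2 genes were matched to the W chromosome, and they were expressed, with medians of 96.7, 88.2 and 96.2 TPM. The sex of the line was not tested here.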

How the data were processed

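Poly(A) RNA-seq tables of the 3 wild-type DT40 samples were used, out of 12 samples, each sample being 1 independent cell population. The authors aligned reads to GRCg6a with Bowtie 2 and ran RSEM with the Ensembl release 96 annotation; tool versions and strand handling are not given in the sources used here. Effective lengths equal the gene length less 49 bases, as reads of 50 bases give. The deposited expected counts are RSEM estimates, fractional where a read was divided among genes, with no depth scaling. For the deposited TPM values the authors' software divided by effective length and fixed the library sum; the deposited FPKM values, used in 1 alternative, are per length and library size. Totals of expected counts were 13806439, 50160512 and 17188632, and low levels are least precise in the smaller libraries.

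From these tables, genes were called expressed at 1 TPM or more in all 3 libraries and silent under 0.1 TPM in all 3. The spread was the highest over the lowest TPM of genes whose mean was 10 TPM or more, called variable at 2-fold, with a library under 3 counts taken at 3 counts (a floor added after the data had been seen). Expected counts were rounded and the common dispersion estimated with edgeR 4.0.16 in R 4.3.3 (TMM, intercept only), and tables were made with pandas 2.3.3 in Python 3.11.15. The dispersion estimate was tried on simulated counts of known dispersion. The spread call and the call of replicate 1 above both others were also tried on simulated counts. The changes set there were larger than the 2-fold and 1.5-fold limits, and the spread was lower than in these data. That trial therefore does not measure how well changes near these limits were called. With 1 group there is no contrast, so no test was run and no p-value is given. The members and lists were chosen with earlier results of these data known, and 4 lists and the 1.5-fold rule for a library that lies apart were added after the values had been seen.

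The genes named were the 20 most abundant with a symbol, *PAX5*, *CD79B*, *BLNK*, *MYC*, the highest expressed and all silent members of the B-lineage lists, the expressed and first silent members of the other lists, the expressed transcription factors of each family, the 12 widest and 5 narrowest, and *TIMELESS*, *DDX11* and *BRIP1*; further genes were chosen after their values were seen. Of 446 listed symbols 384 were matched, 3 by an older name. RefSeq's table of GRCg7b, another assembly than that of the files, served for symbols, chromosomes and neighbouring genes only, and no coordinates or sequences are printed. Alternatives were other level limits, FPKM, a count minimum, other scalings, other spread limits and each replicate left out. Values of some genes are not reported here, though the counts over lists and families include them.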

Additional observations from a re-analysis of the deposited data

How the results depend on the processing

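Of 129 alternatives, 121 left the value within 1.5 times (counts of genes) or 1 SD (values with an SD). Among these were 72 fits of single genes that left out 1 replicate, whose outcome the limit of 1 SD fixed in advance. The count of expressed genes stayed between 8323 and 10968, that of silent genes between 7553 and 11894, and those of the B-lineage lists between 53 and 62 and of the transcription factor families between 31 and 45. The values that moved were these. With a limit of 5 TPM, 11 genes of the lists for other tissues were expressed in place of 26. With expected counts in place of TPM the 100 most abundant genes held 21.8% in place of 34.7%. The 381 genes that differed at least 2-fold became 1333 with a mean of at least 1 TPM, 113 with a mean of at least 50 TPM and 47 at a ratio of 4. Leaving out 1 replicate gave between 41 and 337 such genes, with 41 without replicate 1, and the biological coefficient of variation without it was 8.25% in place of 17.3%. With TMM scaling 370 genes differed 2-fold, with median-of-ratios factors 369, with 1 TPM added 348, and after the data had been seen without the floor 374 and over genes of at least 300 bases 317. The means of 24 single genes stayed within 1 SD in all 72 fits that left out 1 replicate. With 3 values, no mean can move by 1 SD when 1 value is left out, so these fits do not measure stability. The mean of *CD79B* was 281 TPM over all 3 libraries and 191 TPM without replicate 1. The share of the 100 most abundant genes could not move by 1 SD in such fits either. The alternatives on promoter sequence were not run, since no promoter sequences were used here. No paired analysis was possible because only 1 group of samples was used and no groups were compared. Depth limits the silent calls: under 0.1 TPM a gene of about 2 kb had fewer than 3 counts in replicates 1 and 3.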
